A study of Mus musculus with 24 samples.

Results

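The 7 genes described here are Errfi1, the epidermal growth factor (EGF) receptor genes Egfr, Erbb2 and Erbb3, and the ligand genes Hbegf, Areg and Ereg. They were taken by name from a table of 47480 genes, with earlier results of these data known. Their p-values are therefore not those of genes picked without sight of the results. Errfi1 was selected on its own values in these libraries, a smaller fold increase with Dexa after siCop1, so its Dexa and siCop1 values are a description and carry no test. Of the 7 genes, 6 passed the filter on low counts that left 14772 genes for testing, and Areg did not. The RNA came from wild-type mouse embryonic fibroblasts in a design of 3 factors. Cells had received siCTRL or siCop1, then DMSO or KL001, and were taken without or with Dexa. The 8 groups are siCTRL DMSO, siCTRL DMSO Dexa, siCTRL KL001, siCTRL KL001 Dexa, siCop1 DMSO, siCop1 DMSO Dexa, siCop1 KL001 and siCop1 KL001 Dexa, with 3 replicates each and 24 libraries in all. The name siCTRL is read as a control small interfering RNA (siRNA) and siCop1 as one against Cop1, and Dexa is written as in the labels. All groups share the wild-type genotype and an siRNA. The sources used here give no doses, times, siRNA sequences or origin of the cells. The labels do not say that replicates came from separate cultures, so p-values measure the spread between these samples, which may be technical.

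EGF receptors are tyrosine kinases at the cell surface that pair up when a ligand binds. Egfr binds EGF, Tgfa, Areg, Hbegf and Ereg. Erbb2 has no known ligand and acts as a partner, and Erbb3 binds neuregulins and signals mainly through its partners. The ligands are made as membrane proteins and released by proteases. Errfi1, also called Mig6, is an inducible inhibitor that binds the kinase domain of the receptors and promotes their breakdown, and it is a described glucocorticoid-responsive gene. Cop1 recognises substrates for a ubiquitin ligase. The compound KL001 keeps cryptochromes, repressors of the circadian clock, from being broken down.

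RefSeq promoter windows (GRCm38.p6, from 250 bases before to 50 bases after a gene start) were held for 4 of the 7 genes: Errfi1, Egfr, Erbb2 and Areg. Errfi1, the most strongly Dexa-responsive of the 7, has 2 windows, which mark 2 annotated starts. One of them and the Areg window hold the same pair of letter strings at similar distances, although Areg was barely read in these cells. The 120 bases before each of those starts are shown 5′ to 3′, with capitals marking TGACGTCA, the palindromic cyclic-AMP response element, and TATAAA, the TATA box.
Errfi1, chr4:150854950-150855069, plus strand: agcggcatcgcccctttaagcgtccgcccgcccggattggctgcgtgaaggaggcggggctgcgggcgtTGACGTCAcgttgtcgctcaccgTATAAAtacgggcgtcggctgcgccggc
Areg, chr5:91139479-91139598, plus strand: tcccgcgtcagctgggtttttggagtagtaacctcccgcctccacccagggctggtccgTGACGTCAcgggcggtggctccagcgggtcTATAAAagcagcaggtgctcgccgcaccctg

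In Errfi1 the TGACGTCA string began 51 bases before the start and TATAAA 28 bases before it. In Areg they began 61 and 31 bases before the start. Over 32851 promoter windows of the same length, TGACGTCA was found in 1.79% and TATAAA, read on the plus strand of the gene only, in 8.32%. The other strings searched were TGANTCA for AP-1 (7.81% of windows), AGAACA for the glucocorticoid receptor half-site (19% of windows) and CACGTG for the E-box (7.15% of windows), each on both strands. The full glucocorticoid receptor palindrome was in 3 windows of all, or 0.00913%. None of these was found in the windows of the 4 genes, and the Egfr window, the Erbb2 window and the other Errfi1 window held no string of the search. A match is only a match of letters, and its absence says nothing of sequence outside the window.

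In the GENCODE vM21 annotation of GRCm38, Errfi1 spans chr4:150853919-150868892 on the plus strand, Egfr chr11:16752203-16918158 on the plus strand and Erbb2 chr11:98412470-98437716 on the plus strand. Erbb3 spans chr10:128567523-128589652 on the minus strand. Areg (chr5:91139599-91148432) and Ereg (chr5:91074622-91093646) lie next to each other on the plus strand. The sources used here do not say whether counting used the strand, so reads from an overlapping antisense gene could in principle be shared. The antisense gene 1700045H11Rik overlaps Errfi1 by 1031 bases and had 0 to 1 counts per library, and Egfros overlaps Egfr by 15272 bases and had 5 to 32 counts.

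The libraries held 21409988 to 27875023 counts in genes (median 25337292). Rfwd2, the older symbol of Cop1, had 28.39 ± 1.45 CPM (counts scaled to library size; SD, n = 3) in siCTRL DMSO and 4.812 ± 0.172 in siCop1 DMSO, and the log2 change with siCop1 was between -2.56 and -2.43 in the 4 settings. All CPM are on the library totals as scaled by TMM. Summed fibroblast markers were at 35020 to 50770 CPM, led by Col1a1 and Col1a2, whereas 2 of the 9 listed markers were low, Dcn at 1.55 to 4.58 CPM and Fap at 0.0777 to 0.613 CPM. Heart muscle markers stood apart in some siCTRL libraries: their sum ran from 0.678 to 87.8 CPM in siCTRL and from 0.734 to 2.72 CPM in siCop1. In RNA from whole cultures, fewer cells of a type and less RNA per cell cannot be told apart.

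Errfi1 was at nearly the same level with Dexa whichever siRNA the cells had received, and its levels without Dexa differed between the siRNAs. In siCTRL DMSO the 3 libraries read 27.49, 28.92 and 28.32 CPM, and in siCTRL DMSO Dexa they read 249.0, 250.3 and 241.2 CPM. In siCop1 DMSO they read 51.76, 50.3 and 51.55 CPM, and in siCop1 DMSO Dexa 244.5, 250.9 and 236.1 CPM. The siCop1 libraries without Dexa were thus all above the siCTRL libraries without Dexa, and the libraries with Dexa overlapped. The KL001 groups followed the same order, with 31.15, 26.93 and 26.73 CPM in siCTRL KL001 and 244.3, 234.3 and 234.5 CPM in siCTRL KL001 Dexa. In siCop1 KL001 the values were 51.08, 49.66 and 50.44 CPM, and in siCop1 KL001 Dexa they were 248.1, 245.4 and 242.2 CPM. Ordered by their means, the 8 groups formed 3 tiers, siCTRL without Dexa, siCop1 without Dexa and all 4 Dexa groups, and within each tier neighbouring groups overlapped.

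**Figure D1:**
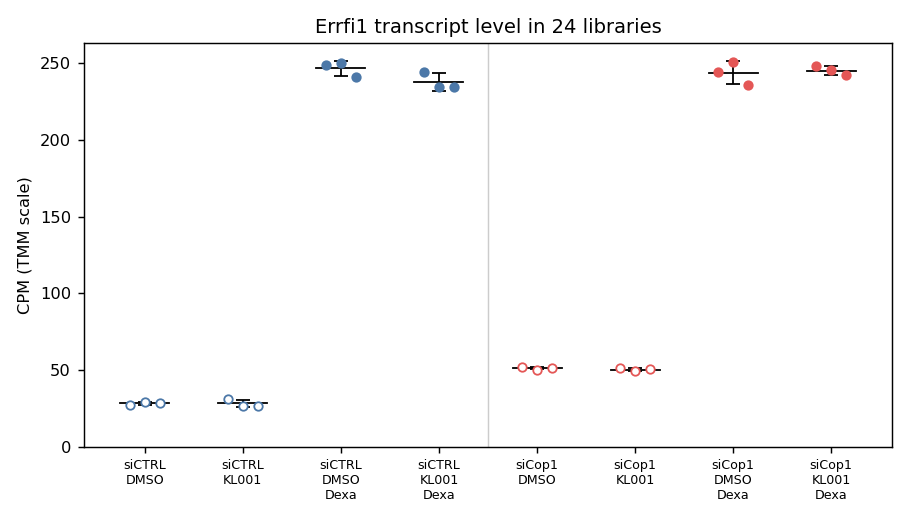
Errfi1 level in CPM (y axis) in each of the 24 libraries, by group (x axis); blue points are siCTRL, red points siCop1, filled points had Dexa, and lines give the mean and SD (n = 3). The 6 siCTRL libraries without Dexa lie at 26.73 to 31.15 CPM, the 6 siCop1 libraries without Dexa at 49.66 to 51.76 CPM, and the 12 Dexa libraries at 234.3 to 250.9 CPM.

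As a fold change, the Dexa increase of Errfi1 was 8.74 in siCTRL DMSO and 8.40 in siCTRL KL001, against 4.76 in siCop1 DMSO and 4.87 in siCop1 KL001. On the log2 scale these were 3.13 ± 0.042 (SE), 3.07 ± 0.042, 2.25 ± 0.039 and 2.28 ± 0.039. The gap between siRNAs was therefore -0.88 in DMSO and -0.79 in KL001 on the log2 scale, which is the quantity Errfi1 was selected on. In plain CPM the increase was 218.6 ± 4.97 (SD of the difference, n = 3 in each group) in siCTRL DMSO and 192.6 ± 7.46 in siCop1 DMSO. In KL001 it was 209.4 ± 6.24 for siCTRL and 194.8 ± 3.04 for siCop1. The siCop1 difference was 0.86 and 0.83 on the log2 scale without Dexa, 1.81-fold and 1.78-fold, and -0.02 and 0.045 with Dexa. Heart muscle markers varied from 0.678 to 87.8 CPM among the 3 siCTRL DMSO Dexa libraries, and Errfi1 ranged from 241.2 to 250.3 CPM in them. The part of heart muscle cells in the Errfi1 level was not tested.

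KL001 was not part of the selection, so its effect on Errfi1 was tested. It passed in none of the 4 settings by edgeR's quasi-likelihood test. Every adjusted p here is from that test, adjusted by Benjamini-Hochberg over all tested genes. The log2 changes were 0.00 (95% interval -0.09 to 0.10, adjusted p = 0.985) in siCTRL and -0.02 (-0.10 to 0.06, adjusted p = 0.875) in siCop1 without Dexa. With Dexa they were -0.05 (-0.12 to 0.01, adjusted p = 0.382) and 0.01 (-0.06 to 0.08, adjusted p = 0.948). The difference in Errfi1's Dexa response between KL001 and DMSO was -0.06 in siCTRL (adjusted p = 0.88) and 0.03 in siCop1 (adjusted p = 1).

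The 6 textbook Dexa-responsive genes on the check list are set beside Errfi1 as values. Fkbp5, a chaperone partner of the glucocorticoid receptor, also had a smaller fold increase after siCop1: 19.7 against 11.6 in DMSO and 20.1 against 12.9 in KL001. It was at 36.41 ± 0.969 CPM in siCTRL DMSO and 718.7 ± 7.13 CPM with Dexa, and with siCop1 at 50.79 ± 1.29 and 589.8 ± 10.4 CPM, so its siRNA groups were apart both without and with Dexa. Tsc22d3, also called Gilz, a glucocorticoid-induced regulator, went from 100.2 ± 1.94 to 662.8 ± 16.8 CPM in siCTRL DMSO and from 79.59 ± 1.76 to 569.3 ± 4.67 CPM in siCop1 DMSO. Its siRNA groups with Dexa were apart in DMSO and overlapped in KL001, at 521.8 to 558 CPM in siCTRL and 510.5 to 522.8 CPM in siCop1. The other 4 genes of the list were singled out after their values were seen. Per1, a clock gene, overlapped between siRNAs in DMSO both with Dexa (192.2 ± 2.92 and 191.9 ± 6.24 CPM) and without it (41.3 ± 0.901 and 41.11 ± 0.894 CPM). The Dexa fold in siCTRL DMSO and siCop1 DMSO was 1.91 and 1.59 for Dusp1, a MAP kinase phosphatase gene, 1.96 and 1.89 for Klf9, and 3.53 and 3.40 for Sgk1.

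The 5 genes whose log2 CPM ran most closely with Errfi1 over the 24 libraries, among 11607 genes, were Mertk (Pearson r = 0.9935), Glul (0.9934), Net1 (0.9912), Nudt4 (0.9906) and Trim24 (0.9905). These correlations are a description across libraries that share the Dexa contrast and carry no test. Mertk, a receptor tyrosine kinase of phagocytosis, had a mean of 15.79 ± 1.57 CPM in siCTRL DMSO, 19.19 ± 0.687 in siCop1 DMSO, 44.76 ± 0.288 in siCTRL DMSO Dexa and 45.45 ± 0.931 in siCop1 DMSO Dexa. Glul, glutamine synthetase, had 11.18 ± 0.307, 14.98 ± 0.93, 57.75 ± 1.75 and 51.8 ± 0.781 CPM in the same 4 groups.

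The 3 receptor genes each behaved differently. Erbb3 was about 3 times as high with siCop1, Egfr moved modestly up with Dexa and down with siCop1, and Erbb2 stayed between 62.96 and 71.94 CPM in all 24 libraries. Erbb3 read 9.775, 10.61 and 10.37 CPM in siCTRL DMSO and 34.36, 35.92 and 33.93 CPM in siCop1 DMSO. With Dexa it read 10.66, 11.97 and 12.79 CPM for siCTRL DMSO Dexa and 45.21, 45.88 and 45.54 CPM for siCop1 DMSO Dexa. Every siCop1 library was far above every siCTRL library, with no overlap. In siCTRL KL001 the values were 12.55, 13.08 and 11.53 CPM, and in siCop1 KL001 38.29, 36.88 and 35.17 CPM. In siCTRL KL001 Dexa they were 14.64, 13.61 and 14.24 CPM, and in siCop1 KL001 Dexa 43.66, 42.96 and 42.91 CPM. The 12 siCTRL libraries thus lay at 9.775 to 14.64 CPM and the 12 siCop1 libraries at 33.93 to 45.88 CPM.

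The siCop1 rise of Erbb3 was 3.39-fold in DMSO (log2 1.76 ± 0.058, adjusted p = 1.68e-19) and 3.86-fold in DMSO with Dexa (log2 1.95 ± 0.056, adjusted p = 5.65e-21). In KL001 it was 2.97-fold (log2 1.57 ± 0.056, adjusted p = 9.88e-19) without Dexa and 3.05-fold (log2 1.61 ± 0.055, adjusted p = 3.64e-19) with it. Dexa raised Erbb3 in siCop1 cells, by 0.39 log2 units in DMSO (adjusted p = 1.4e-07) and 0.23 in KL001 (adjusted p = 0.00039). In siCTRL cells the Dexa difference was 0.205 (adjusted p = 0.0243) in DMSO and 0.20 (adjusted p = 0.0224) in KL001. The DMSO call was lost without the low-count filter (adjusted p = 0.0541), with DESeq2 (0.0525), with only the 2 groups fitted (0.108), and without siCTRL DMSO replicate 1 (0.11) or siCTRL DMSO Dexa replicate 2 (0.0518) or 3 (0.17). The KL001 call was lost with only the 2 groups fitted (0.0631) and without siCTRL KL001 replicate 3 (0.138) or siCTRL KL001 Dexa replicate 1 (0.0984).

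Erbb3 was also the receptor gene that passed for KL001, in siCTRL cells. The rise was 0.27 log2 units without Dexa (1.21-fold, adjusted p = 0.0106) and 0.26 with Dexa (1.20-fold, adjusted p = 0.00778). The first did not pass with only the 2 groups fitted (adjusted p = 0.135) or without siCTRL DMSO replicate 1 (0.0609) or siCTRL KL001 replicate 2 (0.0654), and the second did not pass without siCTRL DMSO Dexa replicate 1 (0.108). In siCop1 cells the KL001 differences were 0.08 (95% interval -0.01 to 0.18, adjusted p = 0.473) and -0.08 (-0.17 to 0.02, adjusted p = 0.453). With Dexa, the KL001 effect in siCop1 minus that in siCTRL was -0.34 log2 units (-0.50 to -0.18, adjusted p = 0.121). That difference passed with a length and GC offset (adjusted p = 0.0404).

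Epithelial and glial markers were set beside Erbb3, which both cell types express. The summed level of the 8 epithelial markers was 3.21 to 13.69 CPM in siCTRL libraries and 6.893 to 49.02 CPM in siCop1 libraries, and all 8 had counts. Within siCop1 DMSO Dexa the sum ran from 12.55 to 49.02 CPM, highest in replicate 1, whereas Erbb3 ranged from 45.21 to 45.88 CPM. Of the 6 Schwann and glial markers, Cdh19 was at 0 in all libraries and Sox10 and Foxd3 reached at most 1 count. Their sum was 3.292 to 5.363 CPM in siCTRL and 2.51 to 4.088 CPM in siCop1. The part of epithelial cells in the Erbb3 level was not tested.

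Egfr read 58.69, 63.52 and 64.71 CPM in siCTRL DMSO and 70.41, 78.33 and 77.24 CPM with Dexa, and all Dexa libraries were above those without. It rose with Dexa by 0.27 log2 units in siCTRL DMSO (adjusted p = 0.000327), 0.32 in siCTRL KL001 (4.48e-05), 0.22 in siCop1 DMSO (0.00498) and 0.16 in siCop1 KL001 (0.0424). The last call was lost with RLE scaling (adjusted p = 0.0515), with DESeq2 (0.0533) and without siCop1 KL001 replicate 1 (0.0758) or 3 (0.174) or siCop1 KL001 Dexa replicate 1 (0.161) or 3 (0.0925). With siCop1, Egfr fell by 0.24 log2 units in DMSO with Dexa (adjusted p = 0.00124), by 0.20 in KL001 with Dexa (0.00713) and by 0.185 in DMSO without Dexa (0.0143). The last was lost without siCTRL DMSO replicate 2 (adjusted p = 0.0608) or 3 (0.0874). In KL001 without Dexa the log2 difference was -0.04 (adjusted p = 0.684) and passed with a length and GC offset (log2 -0.13, adjusted p = 0.00193). The siCTRL KL001 libraries were spread over 52.72 to 65.72 CPM, the widest range of Egfr in a group.

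Erbb2 had neighbouring groups that overlapped throughout its order of means, from 64.37 ± 1.25 CPM in siCop1 KL001 Dexa to 70.9 ± 1 CPM in siCTRL DMSO. It passed 1 of 12 tests, lower with siCop1 in KL001 with Dexa (log2 -0.095, 0.936-fold, adjusted p = 0.049). That call was lost in 9 of 12 alternatives, among them each removal of a siCop1 KL001 Dexa library (adjusted p = 0.051, 0.109 and 0.147 for replicates 1, 2 and 3) and of siCTRL KL001 Dexa replicate 1 (0.173) or 3 (0.0837). In DMSO with Dexa the difference was -0.09 (adjusted p = 0.0501). It passed without siCTRL DMSO Dexa replicate 1 (0.0431) or siCop1 DMSO Dexa replicate 1 (0.026).

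**Figure D2:**
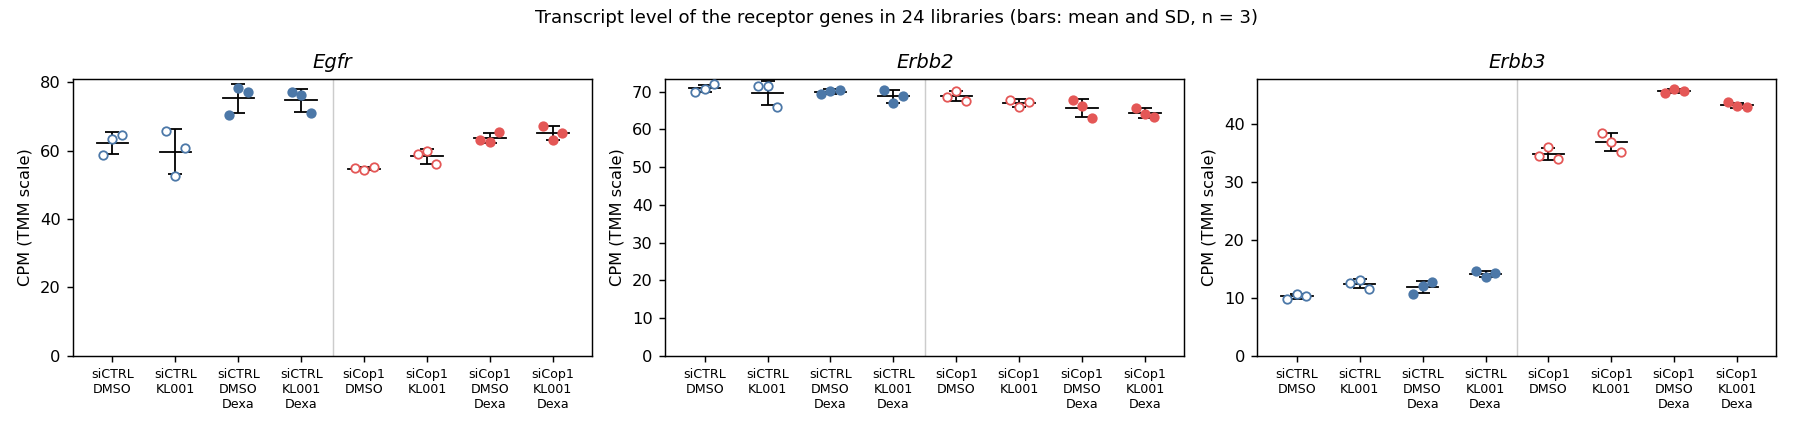
Levels of Egfr, Erbb2 and Erbb3 in CPM (y axes) in the 24 libraries, by group (x axes); blue points are siCTRL, red points siCop1, filled points had Dexa, and lines give the mean and SD (n = 3). Erbb3 separates siCTRL (9.775 to 14.64 CPM) from siCop1 (33.93 to 45.88 CPM), while Erbb2 stays between 62.96 and 71.94 CPM.

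Hmga2 had the pattern closest to Erbb3 over the 24 libraries (Pearson r = 0.9941), followed by Arhgdib (0.9792). Hmga2, a chromatin protein of embryonic cells, averaged 204.4 ± 1.77 CPM in siCTRL DMSO and 555.4 ± 8.35 CPM in siCop1 DMSO. Its mean was higher with Dexa in both siRNAs, 250.2 ± 8.28 and 672.2 ± 17.4 CPM. For Egfr the closest were Pde4dip (0.954) and Insr (0.9527), the insulin receptor gene. Erbb2, with its narrow range, had weaker matches in Pdzd4 (0.8732) and Creb3l1 (0.8605). These values are descriptions over libraries that share treatments.

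The ligand genes Hbegf and Ereg were lower with Dexa and higher with siCop1, except that Ereg did not pass for Dexa in siCTRL KL001. Hbegf encodes heparin-binding EGF-like growth factor. It read 23.74, 23.7 and 24.11 CPM in siCTRL DMSO, 14.28, 15.17 and 15.26 CPM in siCTRL DMSO Dexa, and 38.57, 37.59 and 36.8 CPM in siCop1 DMSO. In siCop1 DMSO Dexa it read 23.64, 21.94 and 22.36 CPM. These libraries lay just below those of siCTRL DMSO, and the siCTRL DMSO Dexa libraries were lower still. In KL001 the values were 21.91, 21.88 and 21.78 CPM for siCTRL KL001 and 14.16, 13.96 and 14.07 CPM for siCTRL KL001 Dexa. They were 34.47, 34.37 and 37.04 CPM for siCop1 KL001 and 20.54, 20.51 and 18.55 CPM for siCop1 KL001 Dexa.

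Hbegf fell with Dexa by 0.68 ± 0.052 (SE) log2 units in siCTRL DMSO (adjusted p = 1.04e-11), 0.635 in siCTRL KL001 (7.36e-11), 0.73 in siCop1 DMSO (1.48e-13) and 0.83 in siCop1 KL001 (1.95e-14). It rose with siCop1 by 0.66 log2 units in DMSO (1.58-fold, adjusted p = 2.41e-12), 0.60 in DMSO with Dexa (2.67e-10), 0.69 in KL001 (1.23e-12) and 0.50 in KL001 with Dexa (2.44e-08). With KL001, Hbegf was lower in siCop1 cells with Dexa (log2 -0.19, adjusted p = 0.0254). That call was lost without the low-count filter (0.0991), with DESeq2 (0.0901), and without siCop1 DMSO Dexa replicate 1 (0.163) or 3 (0.0562) or siCop1 KL001 Dexa replicate 3 (0.194). In the other 3 settings the KL001 differences were -0.13 (adjusted p = 0.136), -0.08 (0.459) and -0.09 (0.316).

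Ereg encodes epiregulin, which binds Egfr. It ranged from 12.81 to 14.34 CPM in siCTRL DMSO, 10.61 to 11.48 CPM in siCTRL DMSO Dexa, 18.93 to 19.71 CPM in siCop1 DMSO and 14.41 to 16.43 CPM in siCop1 DMSO Dexa, with no overlap between these 4 groups. It rose with siCop1 by 0.51 log2 units in DMSO (1.42-fold, adjusted p = 1.04e-06), 0.45 in DMSO with Dexa (2.26e-05), 0.49 in KL001 (2.09e-06) and 0.31 in KL001 with Dexa (0.00175). With Dexa it fell by 0.295 in siCTRL DMSO (adjusted p = 0.0034), 0.35 in siCop1 DMSO (0.000159) and 0.24 in siCop1 KL001 (0.00964). The last was lost without siCop1 KL001 replicate 2 (0.0659) or siCop1 KL001 Dexa replicate 1 (0.0647). In siCTRL KL001 the Dexa difference was -0.06 (95% interval -0.20 to 0.09, adjusted p = 0.668). The difference between the Dexa effects of KL001 and DMSO in siCTRL was 0.24 (0.03 to 0.45, adjusted p = 0.81).

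Summed fibroblast markers also stood at different levels between the siRNAs, as did Hbegf and Ereg, and summed leukocyte markers did so only with Dexa. Summed fibroblast markers were lower with siCop1, at 42270 to 43670 CPM in siCop1 DMSO against 48050 to 50770 CPM in siCTRL DMSO, and the siRNA groups did not overlap in the other 3 settings either. Summed leukocyte markers (5 genes) were at 4.322 to 15.1 CPM in siCop1 libraries and 2.551 to 7.36 CPM in siCTRL libraries. Without Dexa the siRNA groups overlapped, at 4.112 to 5.204 CPM in siCTRL DMSO and 4.322 to 8.94 CPM in siCop1 DMSO. They overlapped in KL001 without Dexa as well. With Dexa they were apart in DMSO and in KL001. Of the 5 genes, Lyz2 had the widest range, 0.329 to 11.3 CPM. Cd68 was at 1.83 to 3.45 CPM and Csf1r at 0.325 to 1.73 CPM. Ptprc had 0 to 6 counts per library and Adgre1 0 to 3. The part of leukocytes or of fibroblast state in the ligand values was not tested.

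Areg, the gene of amphiregulin, was barely read. It had 44 counts over the 24 libraries, from 0 to 4 per library, with 15 in the 12 siCTRL libraries and 29 in the 12 siCop1 libraries. A library without a count still allows up to 3 counts, so no fold is given. Areg lies next to Ereg, which had 242 to 524 counts per library.

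The closest patterns to Hbegf were Osbpl3 (Pearson r = 0.9797) and Antxr2 (0.9773), and to Ereg Itgb8 (0.9516), an integrin subunit gene, and Lrrc8b (0.9496). Itgb8 had 18.33 ± 1.44 CPM in siCTRL DMSO, 10.44 ± 0.788 with Dexa, 38.39 ± 2.22 in siCop1 DMSO and 22.87 ± 0.524 in siCop1 DMSO Dexa.

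**Figure D3:**
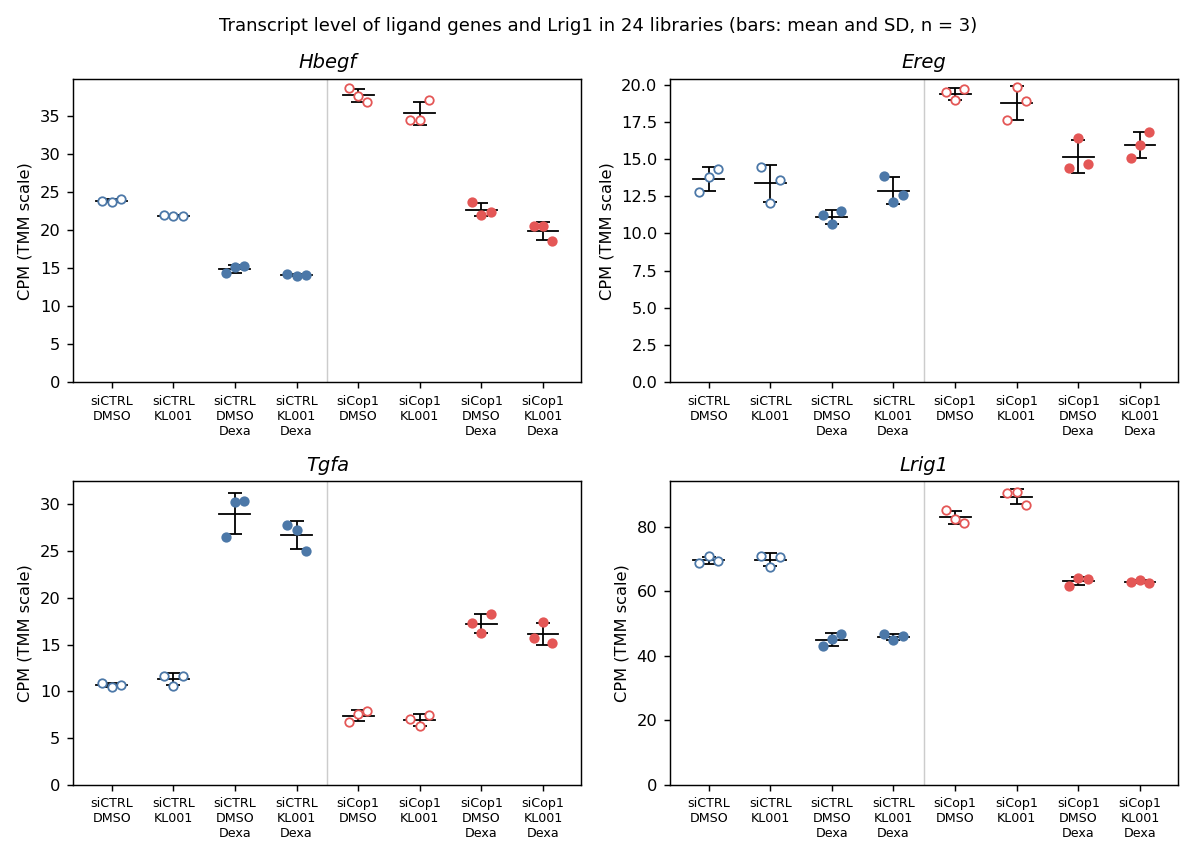
Levels of Hbegf, Ereg, Tgfa and Lrig1 in CPM (y axes) in the 24 libraries, by group (x axes); blue points are siCTRL, red points siCop1, filled points had Dexa, and lines give the mean and SD (n = 3). Tgfa is the ligand gene that is higher with Dexa and lower with siCop1, the reverse of Hbegf.

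Tgfa and Lrig1 came from a list of 40 other genes of the pathway (ligands, the fourth receptor, ligand-releasing proteases, receptor restraint, adaptors and the Ras-MAPK core), of which 35 were tested. The list, too, was chosen with earlier results of these data known. Tgfa and Lrig1 were named with Egf and Nrg2 by a rule that took list genes past the test with a log2 change of at least 0.5. Tgfa encodes transforming growth factor alpha, which shares Egfr with Hbegf. It read 10.86, 10.48 and 10.65 CPM in siCTRL DMSO, 26.47, 30.22 and 30.33 CPM with Dexa, and 6.707, 7.58 and 7.859 CPM in siCop1 DMSO, with no overlap. Its Dexa rise was 1.44 log2 units in siCTRL DMSO (adjusted p = 3.6e-16) and 1.24, 1.225 and 1.21 in siCTRL KL001, siCop1 DMSO and siCop1 KL001. With siCop1 it fell by 0.53 in DMSO (adjusted p = 1.92e-05), 0.75 in DMSO with Dexa (3.22e-10), 0.70 in KL001 (2.42e-07) and 0.73 in KL001 with Dexa (1.28e-09). The Dexa and siCop1 contrasts of a gene share libraries, so their opposite signs are not independent of each other.

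Lrig1 encodes a membrane protein that restrains EGF receptors. Its mean was 69.67 ± 1.07 CPM in siCTRL DMSO and 45.02 ± 1.98 CPM with Dexa, 82.98 ± 1.98 in siCop1 DMSO and 63.21 ± 1.27 in siCop1 DMSO Dexa. It fell with Dexa by 0.63 log2 units in siCTRL DMSO (adjusted p = 1.85e-14), 0.60 in siCTRL KL001 (5.32e-14), 0.39 in siCop1 DMSO (2.83e-10) and 0.50 in siCop1 KL001 (1.24e-12). It rose with siCop1 by 0.25 (adjusted p = 1.24e-06) and 0.49 (1.37e-11) in DMSO without and with Dexa, and by 0.355 (2.15e-09) and 0.45 (8.97e-11) in KL001. Egf, with 34 to 74 counts per library, rose with Dexa in siCop1 DMSO (log2 0.58, adjusted p = 0.0182), a call lost without siCop1 DMSO replicate 3 (0.116) or siCop1 DMSO Dexa replicate 2 (0.1). Nrg2, with 6 to 18 counts per library, passed with siCop1 in DMSO without Dexa (log2 0.91, adjusted p = 0.0454). That call was lost in 7 of 11 alternatives, with adjusted p up to 0.244 (without siCop1 DMSO replicate 2).

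Of the 35 list genes tested, Dexa changed 9 in siCTRL DMSO (2 higher, 7 lower), 12 in siCTRL KL001 (6 and 6), 11 in siCop1 DMSO (5 and 6) and 11 in siCop1 KL001 (4 and 7). These are 25.7%, 34.3%, 31.4% and 31.4% of the list, where 26.8%, 26.8%, 23.7% and 24.5% of all genes tested passed. With siCop1, 12 changed in DMSO (7 higher, 5 lower), 10 in DMSO with Dexa (4 and 6), 12 in KL001 (7 and 5) and 14 in KL001 with Dexa (8 and 6), or 34.3%, 28.6%, 34.3% and 40% against 29.4%, 31.1%, 32.7% and 30.1% of all genes. With an offset for length and GC content the share of the list was higher beside that of all genes: 42.9% against 31.1% for Dexa in siCTRL DMSO, and 54.3% against 35.2% and 57.1% against 36.5% for siCop1 without Dexa in DMSO and in KL001. Its median log2 change was between -0.06 and 0.03 in these 8 comparisons, and that of all genes between -0.01 and 0.00. With KL001 the list had 0, 1, 1 and 2 changed genes in siCTRL without and with Dexa and siCop1 without and with Dexa, or 0%, 2.86%, 2.86% and 5.71% of the list against 6.73%, 10.6%, 4.09% and 5.46% of all genes. The edgeR count of 0 stood beside 3 genes at an unadjusted p under 0.05 and 0 by DESeq2.

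Beside these, 7 list genes were singled out after their values were seen. The first 6 passed in all 4 Dexa or all 4 siCop1 comparisons and in each alternative tried for those comparisons. Map2k1, the MEK1 kinase gene, fell with siCop1 by 0.33 and 0.30 log2 units in DMSO without and with Dexa, and by 0.34 and 0.33 in KL001. Adam17, the main protease that releases several of these ligands, rose with siCop1 by 0.23 and 0.17 in DMSO and by 0.25 and 0.23 in KL001. With Dexa, Socs5, which promotes receptor breakdown, fell by 0.305 and 0.35 in siCTRL DMSO and siCTRL KL001, and by 0.33 and 0.36 in siCop1 DMSO and siCop1 KL001. The adaptor gene Gab1 fell with Dexa by 0.34 and 0.325 in siCTRL and by 0.29 and 0.28 in siCop1, again in DMSO and then KL001. The adaptor gene Shc1 fell by 0.19, 0.23, 0.20 and 0.14 in the same order, and Mapk3, the ERK1 kinase gene, by 0.15, 0.22, 0.18 and 0.145. Nrg1, a ligand of Erbb3, fell with Dexa by 0.24 in siCTRL DMSO (adjusted p = 0.00165), 0.35 in siCop1 DMSO (1.02e-05) and 0.31 in siCop1 KL001 (6.34e-05). In siCTRL KL001 its difference was -0.17 (adjusted p = 0.0241), a call lost in 6 of 12 alternatives with adjusted p up to 0.201 (without siCTRL KL001 replicate 1).

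Counts over the members leave out Errfi1 and hold 5 tested genes of 6. Dexa changed 4 in siCTRL DMSO, 3 in siCTRL KL001, 4 in siCop1 DMSO and 4 in siCop1 KL001, where 26.8%, 26.8%, 23.7% and 24.5% of all tested genes passed. With siCop1, 4 changed in DMSO without Dexa, 4 in DMSO with Dexa, and 3 and 5 in KL001 without and with Dexa, where 29.4%, 31.1%, 32.7% and 30.1% of all genes passed. With KL001, 1 changed in siCTRL without Dexa and 1 with it (Erbb3 in both), 0 in siCop1 without Dexa and 1 with Dexa (Hbegf), where 6.73%, 10.6%, 4.09% and 5.46% of all genes passed. Beside the 0, 1 of the genes had an unadjusted p under 0.05 and DESeq2 called 0. The KL001 counts over all genes depend on single libraries. In siCTRL without Dexa 994 genes passed, and 653 without siCTRL DMSO replicate 3. In siCTRL with Dexa 1560 passed, against 928 without siCTRL DMSO Dexa replicate 1 and 962 without siCTRL KL001 Dexa replicate 3. In siCop1 with Dexa 807 passed, against 502 without siCop1 KL001 Dexa replicate 3 and 509 without siCop1 DMSO Dexa replicate 1. Members chosen with results in view cannot show that such genes pass more often than others.

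None of the 5 tested members passed a test of a difference between effects. For Errfi1 the siCop1 by Dexa difference carries no test, and the adjusted p was 0.88 and 1 for KL001 by Dexa in siCTRL and siCop1, and 0.972 and 0.902 for siCop1 by KL001 without and with Dexa. In siCop1 by Dexa the edgeR counts were 0 in DMSO (1 gene, Erbb3, at an unadjusted p under 0.05) and 0 in KL001 (2 genes, Egfr and Hbegf), where 0.67% and 0.562% of all genes passed. The second share came from 83 genes, and 43 passed without siCop1 KL001 Dexa replicate 2 and 54 without siCop1 KL001 replicate 3. In KL001 by Dexa they were 0 in siCTRL (1 gene, Ereg) and 0 in siCop1 (1 gene, Erbb3), where 0% and 0.0677% passed. In siCop1 by KL001 they were 0 without Dexa (1 gene, Erbb3) and 0 with Dexa (1 gene, Erbb3), where 0% and 0.0677% passed, and DESeq2 called 0 members in all 6. Each 0.0677% is 10 genes, and with 1 library left out the number over all genes was 1 to 7 for the first and 2 to 10 for the second. The siCop1 differences in the Dexa effect in DMSO, on the log2 scale, were -0.06 for Egfr (95% interval -0.21 to 0.10), -0.05 for Erbb2 (-0.15 to 0.05) and 0.19 for Erbb3 (0.02 to 0.35). They were -0.06 for Hbegf (-0.19 to 0.08) and -0.06 for Ereg (-0.26 to 0.14), beside the -0.88 that Errfi1 was selected on.

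**Figure D4:**
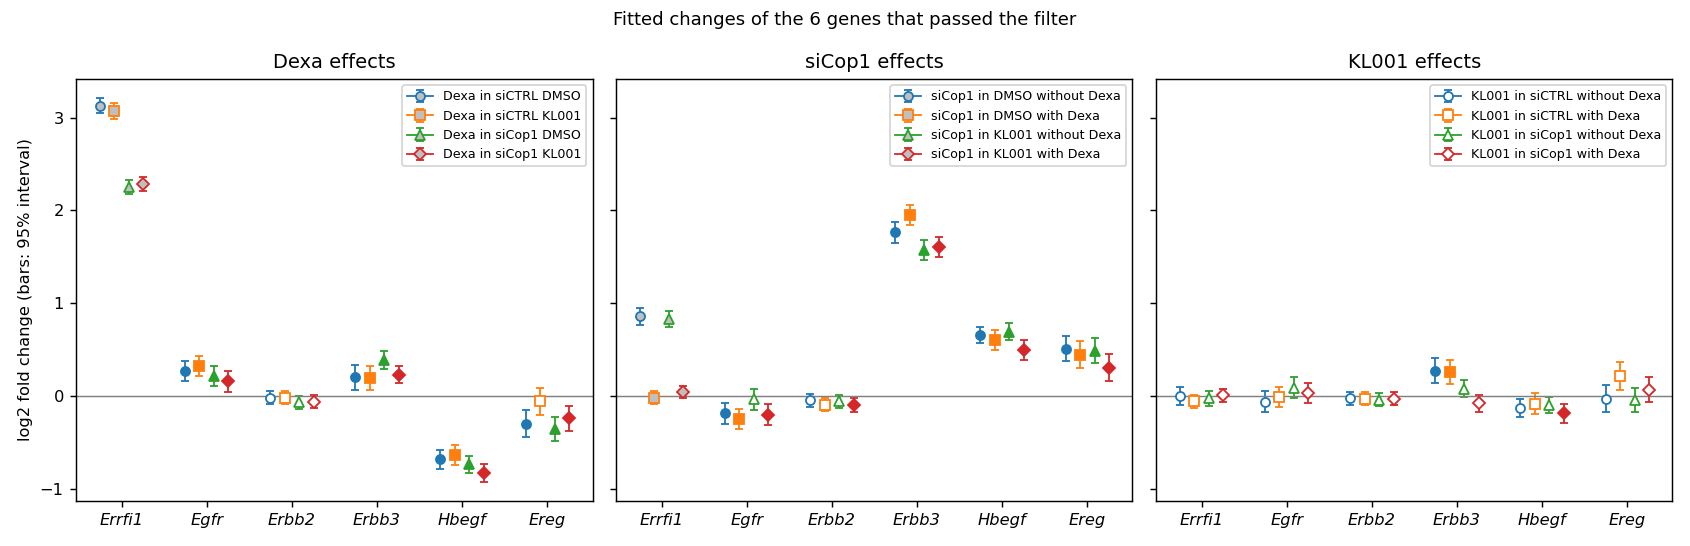
Log2 fold change (y axis) of each of the 6 genes that passed the filter (x axis) with Dexa, siCop1 and KL001, in 4 settings each; bars are 95% intervals from the standard errors. Coloured fill marks an adjusted p below 0.05, white fill one at or above it, and grey fill the Errfi1 values used in choosing it, which carry no test. The Dexa values of Hbegf and Ereg are negative and their siCop1 values positive in all 4 settings of each. The Ereg value for Dexa in siCTRL KL001 is -0.06, with an interval of -0.20 to 0.09, so its sign is not settled. Dexa and siCop1 contrasts share libraries, so their signs are not independent. All KL001 values lie between -0.19 and 0.27.

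Levels of different genes were compared per kilobase of the longest annotated transcript. In siCTRL DMSO, Erbb2 had 14.15 ± 0.2 CPM per kilobase, Errfi1 9.281 ± 0.237, Hbegf 8.252 ± 0.0789, Egfr 6.104 ± 0.312, Ereg 3.307 ± 0.189 and Erbb3 1.704 ± 0.0713. In siCop1 DMSO Erbb3 reached 5.774 ± 0.174 CPM per kilobase, beside 5.364 ± 0.043 for Egfr. With Dexa, Errfi1 led at 77.01 to 82.44 CPM per kilobase over the 4 groups. The place of Egfr depends on the transcript used, since its longest is 10208 bases and its median 716 bases, which would give 87.02 in siCTRL DMSO. By median lengths Hbegf, at 10.04, would pass Errfi1, at 9.303, in the same group. Errfi1 would also lose its lead with Dexa, since Egfr would be above it in all 4 groups. The values would be 105.2 against 81.29 in siCTRL DMSO Dexa and 88.87 against 80.32 in siCop1 DMSO Dexa.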

How the data were processed

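RNA was extracted with an RNeasy kit, and TruSeq stranded mRNA libraries were run as single reads on 3 HiSeq lanes, per the labels' protocols. The submitters' processing notes name bcl2fastq 1.8.4, STAR 2.4.5a, featureCounts in Subread 1.4.6-p3, DESeq2, Picard 1.126 and the builds GRCm38 and mm10. The sources used here name no annotation or strand setting. The authors deposited raw read counts per gene symbol, and a normalized table (unit: signal) of counts divided by 1 factor per library. The deposited signal table served only as a check, and 100% of its values were within 0.011 of counts divided by recomputed size factors (0.862 to 1.117). No columns were left unused (0).

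The 7 members, the pathway list and the marker lists were chosen with earlier results of these data known. Counts were filtered with filterByExpr (minimum count 10, minimum total 15), scaled by TMM and fitted with edgeR 4.0.16 in R 4.3.3 (quasi-likelihood, robust) over all 24 libraries with 1 mean per group. There were 12 simple effects and 6 interactions, tests were two-sided, and a call is an adjusted p below 0.05. On simulated data for Dexa in siCTRL DMSO (14443 genes), 74 of 100 genes changed 1.25-fold and 98 of 100 changed 2-fold were recovered, with 5 false calls. Only those genes, each with a mean of at least 1 CPM, were changed, whereas 26.8% of genes passed in the real comparison. The simulated rates therefore need not hold for the real tests, and no interaction was simulated. The common biological coefficient of variation was 3.71%. Replicates differed by more than sampling noise (chi-square per degree of freedom 1.60 to 9.27). The excess was uneven, at 4.195 to 9.266 in siCTRL KL001 and 1.863 to 2.084 in siCop1 DMSO. All groups shared 1 estimate of the spread per gene, which can be too small for the more variable groups.

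Named genes are the 7 members, list genes past the test with a log2 change of at least 0.5, the closest patterns by Pearson correlation of log2 CPM (prior count 2; mean of at least 1 CPM), and Rfwd2, Fkbp5 and Tsc22d3. Outside this rule, Map2k1, Adam17, Socs5, Gab1, Shc1, Mapk3, Nrg1, Per1, Dusp1, Klf9 and Sgk1 were singled out after their values were seen. The ranking by correlation skipped gene symbols made of Gm and a number, those ending in Rik and those with -ps. Same-numbered replicates varied together in 2 of 12 comparisons: correlations of deviations were 0.165 to 0.464 for Dexa in siCTRL KL001 and 0.167 to 0.368 for KL001 in siCTRL with Dexa. Alternatives were RLE scaling, no filter, DESeq2 1.42.0, a length and GC offset (4 spline degrees of freedom; 96.8% of tested genes have a length), a replicate block, only the groups compared, each library left out, and median transcript length.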

Additional observations from a re-analysis of the deposited data

Results flagged for a closer look

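Lrig1 showed a Dexa effect in DMSO that differed between siRNAs by a test of the difference. Its log2 change with Dexa was -0.63 in siCTRL and -0.39 in siCop1, a difference of 0.24 (0.237, adjusted p = 0.0161 by edgeR's quasi-likelihood test), and 0.67% of all genes passed that test. All 3 libraries of each siCop1 group lay above those of the matching siCTRL group. The call was lost without the low-count filter (adjusted p = 0.0824) and without siCTRL DMSO replicate 2 (0.089) or 3 (0.0667), siCTRL DMSO Dexa replicate 1 (0.119) or 2 (0.054), siCop1 DMSO replicate 2 (0.0507) or 3 (0.0563), or siCop1 DMSO Dexa replicate 2 (0.0566) or 3 (0.054). In KL001 the same difference was 0.10 (adjusted p = 0.676).

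Fkbp5 also had a Dexa effect that differed between siRNAs by the test of the difference. The log2 change with Dexa was 4.30 in siCTRL DMSO and 3.54 in siCop1 DMSO, a difference of -0.76 (-0.764, adjusted p = 2.06e-11 by edgeR's quasi-likelihood test). In KL001 it was 4.33 and 3.69, a difference of -0.64 (-0.641, adjusted p = 1.01e-09), and 0.562% of all genes passed there. Both calls held in each of the 18 alternatives, with adjusted p up to 1.74e-09 in DMSO and 1.88e-06 in KL001. The gene was on a check list chosen with earlier results of these data known.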

How the results depend on the processing

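Of the 34 calls made on the members, 25 held in every alternative tried, and of 64 tests without a call, 61 stayed without one; none reversed. The described Errfi1 values moved by less than the SD of the difference in all 132 alternatives. That SD combines the replicate variances of log2 CPM over all groups in the comparison, so it is larger than the SD of 1 group. Without the low-count filter the number of members changed with KL001 in siCop1 with Dexa became 0, as it did with DESeq2, and the pathway list count for KL001 in siCTRL with Dexa became 0. With a length and GC offset the list counts became 15 for Dexa in siCTRL DMSO, 19 and 20 for siCop1 in DMSO and in KL001 without Dexa, 1 and 3 for KL001 in siCTRL without and with Dexa, and 2 for KL001 in siCop1 without Dexa. Under the same offset 1 member (Erbb3) passed for siCop1 by KL001 with Dexa, where the count was 0. The offset also raised the share of all genes called, to 31.1%, 35.2%, 36.5%, 10.7%, 15.8% and 6.49% in the 6 comparisons of those list counts, in the same order. With only the groups compared, members changed with KL001 in siCTRL without Dexa became 0, and the list counts became 0 for KL001 in siCTRL with Dexa and 2 for KL001 in siCop1 without Dexa; over all genes KL001 then changed 225 in siCTRL without Dexa (994 before), 950 in siCop1 (604) and, with Dexa, 1435 in siCop1 (807). The causes of these shifts were not tested. Leaving out each library in turn gave 0 to 1 members for KL001 in siCTRL without Dexa, in siCTRL with Dexa and in siCop1 with Dexa, and 2 to 4 members for Dexa in siCop1 KL001 (2 without siCop1 KL001 Dexa replicate 1). It gave 0 to 1 list genes for KL001 in siCTRL without Dexa, 0 to 2 in siCTRL with Dexa, 0 to 1 in siCop1 without Dexa and 0 to 2 in siCop1 with Dexa. For siCop1 in DMSO without Dexa it gave 7 to 13 list genes, 7 without siCop1 DMSO replicate 3.

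With a replicate block no count of members or list genes moved by over 1.5 times: Dexa changed 4, 3, 4 and 3 members and siCop1 changed 4, 5, 3 and 5. Egfr lost its Dexa call in siCop1 KL001 (adjusted p = 0.057) and Erbb2 gained one for siCop1 in DMSO with Dexa (0.0491). Same-number correlations there were -0.17 to 0.016 and -0.046 to 0.066, which cannot show that the samples were unpaired. Within an siRNA, sample names of the same number share a stem across DMSO, KL001 and Dexa. The labels do not say whether such samples share a culture. Over all genes, the counts for KL001 by Dexa in siCop1 and for siCop1 by KL001 with Dexa went from 10 to 5 each. In the 2 comparisons where same-numbered replicates varied together, no member call changed. Over the 12 comparisons same-number correlations ran from -0.29 to 0.464, and 13 of 24 libraries correlated best with their own number.

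Depth limits Areg (44 counts in all), Nrg2 and Egf. Intervals and the floor of 3 counts for a library at 0 cover counting error only, and PCR copies were not told apart. RLE scaling moved 1 of 56 levels by more than the replicate SD, and median transcript length moved 24 of 56.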
